A study of Mus musculus with 12 samples.

Results

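Leukotrienes and prostaglandins are short-lived lipid signals made from arachidonic acid, and the 10 enzymes and enzyme partners described here are those that start, branch and end their synthesis. They were chosen by gene symbol, as the rows of the TPM table whose Ensembl identifier maps to *Alox5*, *Alox5ap*, *Alox15*, *Lta4h*, *Ltc4s*, *Ptgs1*, *Ptgs2*, *Hpgd*, *Hpgds* or *Ptges*. All 10 were found among 48623 genes, each with 1 identifier. The set was drawn up with earlier results of these data known, so counts over it are a description and support nothing by themselves. The libraries came from primary microglia of newborn mice on a C57BL/6J background, grown out of mixed glia of cortex and hippocampus and freed of the astrocyte layer by mild trypsin. The cells were either wild type (WT) or carried 2 copies of an R47H knock-in allele of *Trem2* (KI), and *Trem2* encodes a lipid-sensing receptor of microglia. From each of the 6 cultures an untreated library and a library treated for 48 h were made, with interleukin-4 (IL-4), a cytokine of type 2 immunity, at 20 ng/ml. This makes 12 libraries in 4 groups of 3. Values per library are always listed in the order T13, T33, T43 for the WT cultures and T15, T22, T32 for the KI cultures. The study asked how the KI allele and IL-4 shape microglial gene expression.

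The KI line as a model has limits that bear on every genotype value here. The R47H allele of this mouse line lowers *Trem2* mRNA itself through altered splicing, so the allele is both a point mutation and a partial loss of expression. *Trem2* lay between 1190 and 1886 TPM in the WT libraries and between 325 and 770 TPM in the KI libraries, so every library matched its genotype label. By the study's account the WT microglia were from littermates of KI mice, and pups of this line were cultured separately and genotyped later. The labels do not say which cultures share a litter. As a check of the treatment, *Retnla*, *Chil3*, *Socs1* and *Egr2*, genes known to answer IL-4, rose with it. The 14 microglial markers summed to between 26212 and 36190 TPM in the WT libraries and to between 11442 and 26506 TPM in the KI libraries, and 5 of the 14 were lower in KI by the test described below. Oligodendrocyte-lineage markers summed to 34.7 to 94.9 TPM in WT and 96.0 to 460 TPM in KI, with *Olig1* called higher in KI. Markers of mural cells and fibroblasts summed to 141 to 557 TPM in WT and 701 to 1313 TPM in KI, and astrocyte markers reached 4788 TPM in KI culture T15 against at most 691 TPM in the other cultures. From cell counts in such cultures, the study reported that the share of microglia did not change substantially between WT and homozygous KI, untreated or with IL-4. From the RNA values alone, fewer cells of a type and less RNA per cell cannot be told apart.

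In the leukotriene arm, 5-lipoxygenase (*Alox5*), presented with its substrate by the membrane partner FLAP (*Alox5ap*), makes the unstable intermediate leukotriene A4. *Lta4h* turns this into leukotriene B4, a neutrophil attractant, and *Ltc4s* joins it to glutathione to give the cysteinyl leukotrienes. In the prostaglandin arm, the cyclooxygenases *Ptgs1* and *Ptgs2* make prostaglandin H2, which *Hpgds* converts to prostaglandin D2 and *Ptges* to prostaglandin E2. *Hpgd* encodes the dehydrogenase that inactivates prostaglandins, and *Alox15* encodes a second lipoxygenase. IL-4 signals through the transcription factor STAT6, and in many macrophages it is known to raise *Alox15*. Microglia are known as the main brain cells with *Ptgs1* and *Hpgds*.

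To show the promoters of the enzymes that the results turn on, windows of 300 bases, 250 before and 50 after the start site, were taken from RefSeq on GRCm38.p6. Such windows were given for 8 of the 10 members, while *Alox5ap* and *Alox15* had none. Shown 5′ to 3′ are *Ptgs1*, *Ltc4s*, *Hpgd* and *Alox5*, whose libraries separated by treatment, and *Ptges*, for its STAT-type palindrome. Capitals mark 4 motifs searched on both strands: TTC and GAA with 4 bases between them (the spacing STAT6 binds), TTC and GAA with 3 bases between them (other STATs), GGAAGT (a core bound by the microglial factor PU.1 and other ETS factors) and TATAAA. The last 2 motifs were added after the sequences had been seen.
Ptgs1, chr2:36230176-36230475, plus strand: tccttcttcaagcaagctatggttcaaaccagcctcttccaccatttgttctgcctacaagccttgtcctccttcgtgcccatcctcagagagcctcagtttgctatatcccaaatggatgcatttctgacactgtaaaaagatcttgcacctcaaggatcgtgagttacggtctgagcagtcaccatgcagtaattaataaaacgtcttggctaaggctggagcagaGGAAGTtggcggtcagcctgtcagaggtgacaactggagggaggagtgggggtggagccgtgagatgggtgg
Ltc4s, chr11:50238483-50238782, minus strand: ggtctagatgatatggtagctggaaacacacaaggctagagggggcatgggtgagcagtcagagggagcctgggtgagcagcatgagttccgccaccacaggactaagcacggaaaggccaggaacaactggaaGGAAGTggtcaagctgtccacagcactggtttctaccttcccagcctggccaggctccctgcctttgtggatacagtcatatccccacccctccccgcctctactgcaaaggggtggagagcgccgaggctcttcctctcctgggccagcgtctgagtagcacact
Hpgd, chr8:56294302-56294601, plus strand: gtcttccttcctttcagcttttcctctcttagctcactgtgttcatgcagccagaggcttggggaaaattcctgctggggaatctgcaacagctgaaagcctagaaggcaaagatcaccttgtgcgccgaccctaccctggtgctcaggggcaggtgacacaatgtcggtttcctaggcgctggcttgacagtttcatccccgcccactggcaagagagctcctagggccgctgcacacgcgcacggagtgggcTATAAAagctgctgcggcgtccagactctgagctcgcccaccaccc
Alox5, chr6:116461129-116461428, minus strand: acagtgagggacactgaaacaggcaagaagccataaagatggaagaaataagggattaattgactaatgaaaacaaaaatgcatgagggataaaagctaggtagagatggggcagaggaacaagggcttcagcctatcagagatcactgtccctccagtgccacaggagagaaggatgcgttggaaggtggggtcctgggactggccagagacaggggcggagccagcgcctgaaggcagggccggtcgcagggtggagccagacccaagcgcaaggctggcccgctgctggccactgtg
Ptges, chr2:30903248-30903547, minus strand: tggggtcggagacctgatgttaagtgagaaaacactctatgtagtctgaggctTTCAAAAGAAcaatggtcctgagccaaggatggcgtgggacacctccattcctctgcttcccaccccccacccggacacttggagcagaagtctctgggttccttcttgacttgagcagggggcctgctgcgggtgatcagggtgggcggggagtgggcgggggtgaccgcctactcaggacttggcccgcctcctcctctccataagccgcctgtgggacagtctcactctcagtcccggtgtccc

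The palindrome with 4 bases between its arms was held by 1 of the 8 windows, that of *Ptges*, as TTCAAAAGAA starting 197 bases before the start site. Of all 32841 mouse windows of the same length, 6.95% hold this motif. The RefSeq start of *Ptges* used here lies 26566 bases inside the gene as GENCODE annotates it, that of *Hpgds* 178 and that of *Ltc4s* 84 bases inside. The palindrome with 3 bases between its arms was in none of the 8 and in 8.3% of all windows. GGAAGT was in 3 of the 8, those of *Ptgs1*, *Ltc4s* and *Hpgds*, and in 23.8% of all windows. TATAAA was in the *Hpgd* window, where it begins 5 bases into the transcript by the RefSeq start and 29 bases before the start that GENCODE gives at chr8:56294585, and in 13.6% of all windows. The letters say only what these windows hold. The GC content ran from 46.7% in *Hpgds* to 60.7% in *Lta4h*, around a median of 52.7% over all windows. *Lta4h* and *Ptgs2* each held 16 CpG dinucleotides, against a median of 7.

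TPM is scaled for transcript length, so levels can be compared between genes within these libraries. *Hpgd* stood highest, at 479 TPM averaged over the 12 libraries, followed by *Hpgds* at 161 and *Ptgs1* at 126 TPM. *Alox5ap* averaged 97.8 TPM, *Lta4h* 41.0 TPM and *Ltc4s* 34.7 TPM. *Ptgs2* averaged 13.2 TPM, *Ptges* 6.84 TPM and *Alox5* 3.30 TPM, so the partner protein of 5-lipoxygenase was listed far above the enzyme. *Alox15* was listed at 0 in all 12 libraries, IL-4 included. *Hpgd*, which inactivates prostaglandins, was highest in every group mean. In all 12 libraries *Hpgds* lay above *Ptges*, by 6.08 to 186 times. *Hpgds* came second only without IL-4: with it, *Ptgs1* lay above *Hpgds* in 6 of 6 libraries, with means of 224 and 167 TPM in WT and of 178 and 107 TPM in KI. Within untreated WT the order was *Hpgd*, *Hpgds*, *Alox5ap*, *Ptgs1*, *Lta4h*, *Ltc4s*, with *Ptges*, *Alox5* and *Ptgs2* lowest. Neighbours from *Hpgd* down to *Ltc4s* did not overlap there. *Ptges*, *Alox5* and *Ptgs2* overlapped each other, and the highest *Ptges* value lay above the lowest of *Ltc4s*.

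**Figure D1:**
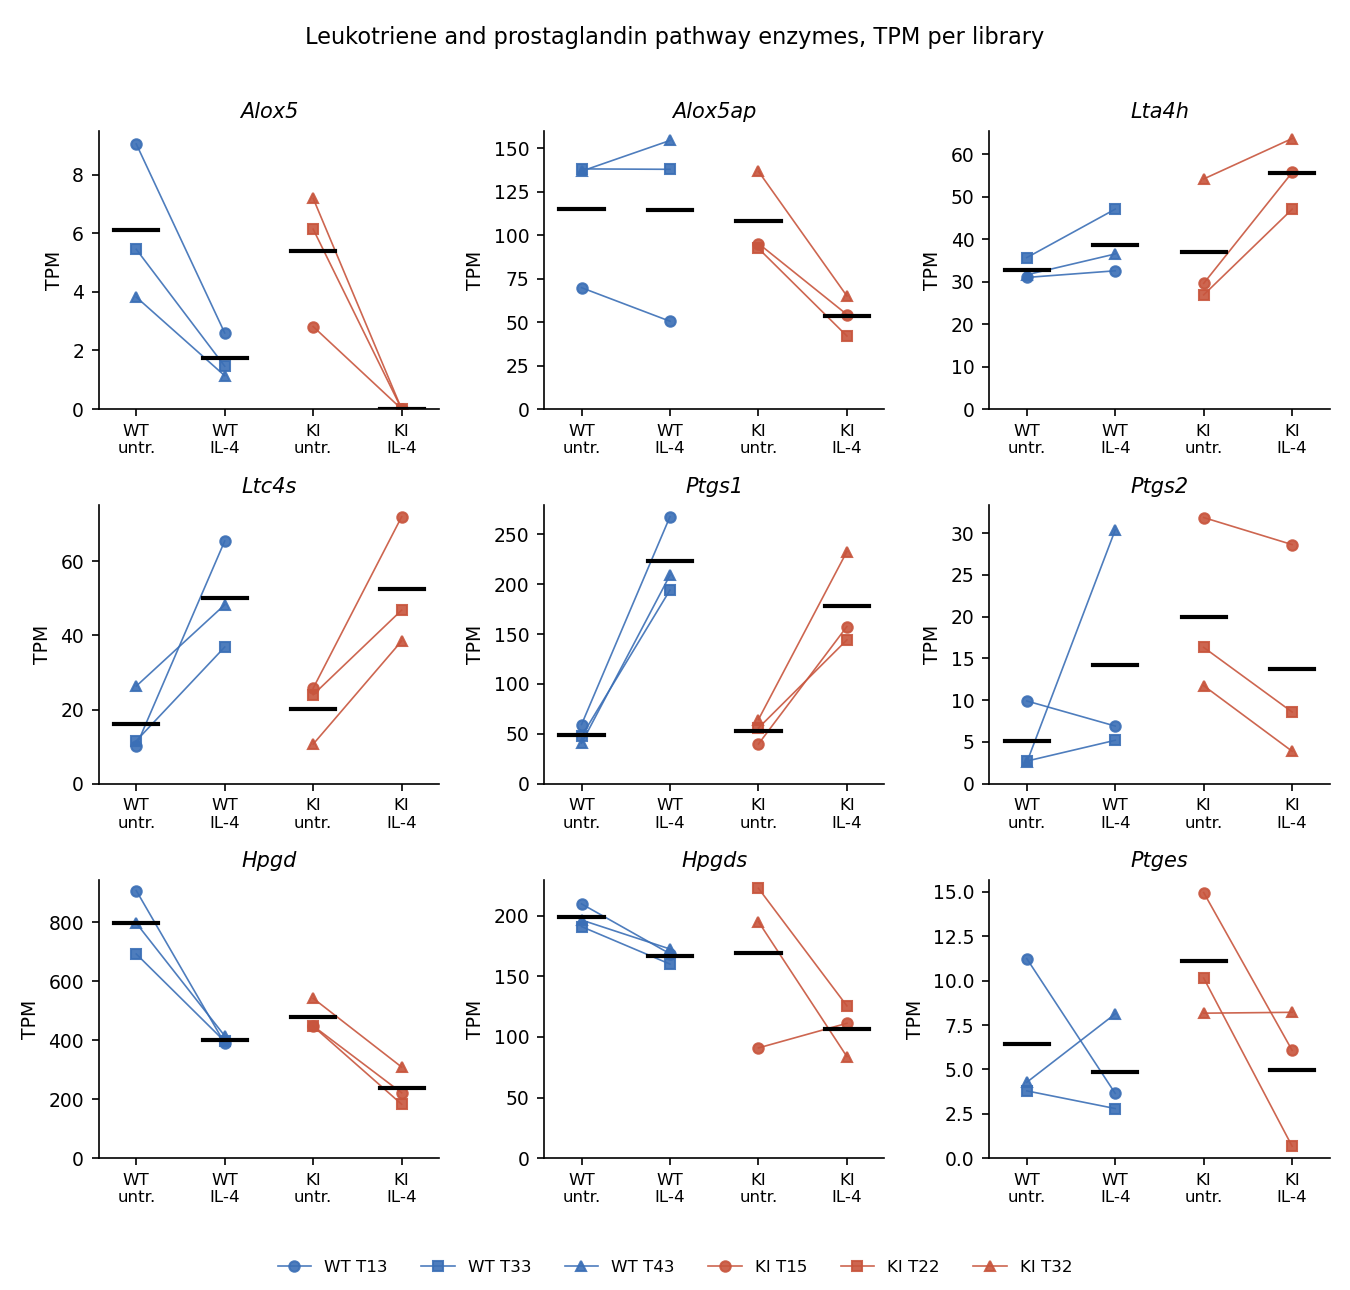
TPM (vertical axis, from 0) of the 9 members above 0, in WT and KI microglia, untreated (untr.) and after IL-4. Each point is a library, thin lines join the libraries of a culture and black bars are group means; *Ptgs1* rises and *Hpgd* falls in every culture, and *Alox5* sits at 0 in the 3 KI libraries with IL-4.

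The effect of IL-4 was tested with limma on log2(TPM + 1) over the 11204 genes with a mean above 1.5, which included 9 of the 10 members. A moderated F-test asked whether IL-4 changed expression in either genotype, and p-values were adjusted by Benjamini-Hochberg over all tested genes with a threshold of 0.05. *Ptgs1* rose, and *Hpgd* and *Alox5* fell. Across all tested genes 0.75% were called higher with IL-4 and 0.143% lower, against 1 and 2 of the 9 members, of which *Alox5* was above the expression limit only through its untreated libraries. The members' median difference was -0.42 on the log2 scale, against 0.04 for all tested genes, with 4 members above 0 and 5 below. This median includes *Alox5* and is a description, not a shift of the set. Marker lists of 2 other cell types also separated by treatment. The 5 endothelial markers summed to 19.4 to 29.1 TPM untreated and 61.01 to 141 TPM with IL-4, and the 5 markers of border-associated macrophages to 3.97 to 15.7 and 17.8 to 64.5 TPM. Of these *Flt1* and *Mrc1* passed the test, and with IL-4 they made up most of the sums of their lists. *Cldn5*, *Tek* and *Lyve1* were listed at 0 in all libraries and *Cd163* was at most 0.05 TPM. *F13a1*, another border macrophage marker, was lower with IL-4 in 6 of 6 cultures. Their part in the members' values was not tested. Here and below, counts of cultures that moved in 1 direction are a description, given without the share of all genes that did so.

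*Ptgs1*, the constitutive cyclooxygenase, stood at 59.3, 47.5 and 40.5 TPM in untreated WT, and at 268, 194 and 209 TPM in the same cultures with IL-4. The KI cultures held 39.8, 55.9 and 64.4 TPM untreated and 158, 144 and 233 TPM with IL-4. All 6 libraries with IL-4 lay above all 6 without it, and each culture rose, by 2.58 to 5.16 times. The group means were 49.1 ± 9.48 (SD, n = 3) and 224 ± 38.9 TPM in WT, and 53.3 ± 12.5 and 178 ± 47.8 TPM in KI. The average difference was 1.94 ± 0.17 (SE) on the log2(TPM + 1) scale, with an adjusted p of 8.92e-05 in limma. It passed under all 9 alternative settings and with any of the 6 cultures left out. Complete separation of the 6 IL-4 libraries from the 6 untreated ones was seen for 1.12% of tested genes upward and 0.25% downward. Platelets also carry *Ptgs1*: of 5 platelet markers only *Pf4*, which macrophages express too, exceeded 5 TPM in any library, and the list summed to 39.0 to 187 TPM untreated and 63.0 to 351 TPM with IL-4. The other 4, *Itga2b*, *Gp9*, *Ppbp* and *Gp1ba*, reached at most 4.34, 2.00, 1.89 and 0.58 TPM, and *Itga2b* was higher with IL-4 in 5 of 6 cultures. Their part in the *Ptgs1* values was not tested.

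*Hpgd*, the main prostaglandin-inactivating enzyme, stood at 908, 693 and 797 TPM in untreated WT and at 390, 396 and 415 TPM with IL-4. For KI the values were 449, 447 and 542 TPM untreated and 222, 183 and 309 TPM with IL-4. With IL-4 each culture kept 40.9% to 57.2% of its untreated level, and the 6 IL-4 libraries lay below the 6 untreated ones. The average difference was -1.01 ± 0.13 (SE) on the log2 scale with an adjusted p of 0.00302 in limma. It passed with any culture left out and under 8 of 9 alternative settings, and missed the threshold without the variance trend, where the adjusted p was 0.0671. The fall was near equal in the 2 genotypes, -0.99 in WT and -1.04 in KI, each with an SE of 0.18.

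*Alox5*, the first enzyme of leukotriene synthesis, was low throughout. Untreated WT cultures held 9.05, 5.45 and 3.82 TPM, and the same cultures with IL-4 held 2.60, 1.46 and 1.14 TPM. Untreated KI cultures held 2.81, 6.14 and 7.19 TPM, and with IL-4 all 3 were listed at 0. No value with IL-4 reached the lowest untreated value. In WT the 3 cultures kept 26.8% to 29.8% of their untreated level, and no fold is given for KI. The limma F-test gave an adjusted p of 0.0391. The fitted average difference was -1.97 ± 0.37 (SE) with a pseudocount of 1 and -3.71 with one of 0.1, since the zeros make it depend on the pseudocount. With a mean log2(TPM + 1) of 1.69, *Alox5* lies just above the expression limit, and the depth behind TPM is unknown, so a value of 0 is described only as listed at 0. It passed that limit through its untreated libraries, so its call is a description. With no filter on low values the adjusted p was 0.101, and the 7 other alternative settings kept the call. The call held in 1 of 6 fits that left out a culture, at 0.0437 without T15. It was lost without T13, T22, T32, T33 or T43, with adjusted p-values of 0.163, 0.202, 0.195, 0.193 and 0.181. Neutrophils carry the enzyme as well. Their 7 markers summed to 45.2 to 111 TPM untreated and 42.4 to 100.4 TPM with IL-4, most of it *Csf3r* (25.9 to 94.4 TPM), which microglia also express. *S100a8* was 0 to 14.8 TPM untreated and 0 to 3.42 TPM with IL-4, and *S100a9*, *Ly6g* and *Ngp* were listed at 0 throughout. Their part in the *Alox5* values was not tested.

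*Ltc4s*, which commits leukotriene A4 to the cysteinyl leukotrienes, stood at 10.2, 11.6 and 26.3 TPM in WT without IL-4 and at 65.5, 36.9 and 48.3 TPM with it. KI microglia held 25.8, 24.0 and 10.7 TPM untreated and 72.0, 46.8 and 38.5 TPM with IL-4. The 6 IL-4 libraries again lay above all 6 untreated ones, by 1.83 to 6.45 times within a culture. The average difference was 1.53 ± 0.29 (SE) on the log2 scale, and its adjusted p of 0.0515 in limma missed the threshold. When culture was a fixed replicate block, which compares the 2 libraries of each culture, the adjusted p was 0.00857. In limma it passed under 3 of 9 alternative settings, with adjusted p-values up to 0.373. It passed in 0 of 6 fits that left out a culture (0.0565 to 0.293). Mast cells and eosinophils also carry *Ltc4s*. The mast cell genes *Fcer1a*, *Tpsb2* and *Mcpt4* and the eosinophil gene *Epx* were listed at 0 in all 12 libraries, while the 8 mast cell markers summed to at most 6.62 TPM and the 5 eosinophil markers to at most 14.7 TPM. The eosinophil sum was 0 to 1.44 TPM untreated and 1.28 to 14.7 TPM with IL-4, where *Siglecf* reached 11.2 TPM. Its part in the *Ltc4s* values was not tested.

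The other 2 steps of the leukotriene arm did not pass the test. *Alox5ap* stood at 69.8, 138 and 137 TPM in untreated WT and at 50.5, 138 and 155 TPM with IL-4. The values in KI were 95.2, 92.4 and 137 TPM untreated and 54.4, 42.0 and 65.1 TPM with IL-4. All 3 KI cultures were thus lower with IL-4, whereas the WT cultures lay on both sides. Its average IL-4 difference was -0.54 ± 0.27 (SE; adjusted p = 0.716 in limma), and in the fit with the fixed replicate block the adjusted p was 0.0248. *Lta4h*, which leads to leukotriene B4, was higher with IL-4 in 6 of 6 cultures, at 26.9 to 54.2 TPM untreated and 32.5 to 63.7 TPM with IL-4. These ranges overlapped, and its difference of 0.43 ± 0.19 (SE) had an adjusted p of 0.754. The count of cultures is a description. Beside these 2, *Lta4h* over *Ltc4s* ran from 1.12 to 5.08 in the untreated libraries and from 0.497 to 1.65 in those with IL-4.

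Among the other prostaglandin enzymes none passed for IL-4. *Hpgds* stood at 210, 191 and 196 TPM in untreated WT and at 169, 160 and 173 TPM with IL-4, lower in each WT culture. In KI microglia it stood at 91.0, 223 and 195 TPM untreated and at 111, 126 and 83.8 TPM with IL-4, where T15 alone was higher. Its average difference was -0.42 ± 0.19 (SE; adjusted p = 0.812 in limma), and it was not called. Without T15 it was -0.63 with an adjusted p of 0.0437, and without T32 it was -0.26 with one of 0.974. *Ptges*, the inducible synthase for prostaglandin E2, spread from 0.67 to 14.96 TPM, and its difference of -0.81 ± 0.45 (SE) had an adjusted p of 0.886 and was -0.45 without T22. *Ptgs2*, the inducible cyclooxygenase, held 9.91, 2.71 and 2.54 TPM in untreated WT and 6.90, 5.20 and 30.4 TPM with IL-4. In the KI libraries it held 31.9, 16.3 and 11.7 TPM untreated and 28.6, 8.58 and 3.88 TPM with IL-4. The WT value of T43 with IL-4 stood far above the other WT libraries, all 3 KI cultures were lower with IL-4, and the average difference was 0.17 ± 0.52 (SE; adjusted p = 0.926). Without T43 that difference was -0.33. The T43 library with IL-4 also stood apart in fibroblast genes, with *Col1a1* at 85.9 and *Col1a2* at 81.7 TPM, against at most 7.22 and 5.16 TPM in the other WT libraries. Their part in the *Ptgs2* values was not tested.

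**Figure D2:**
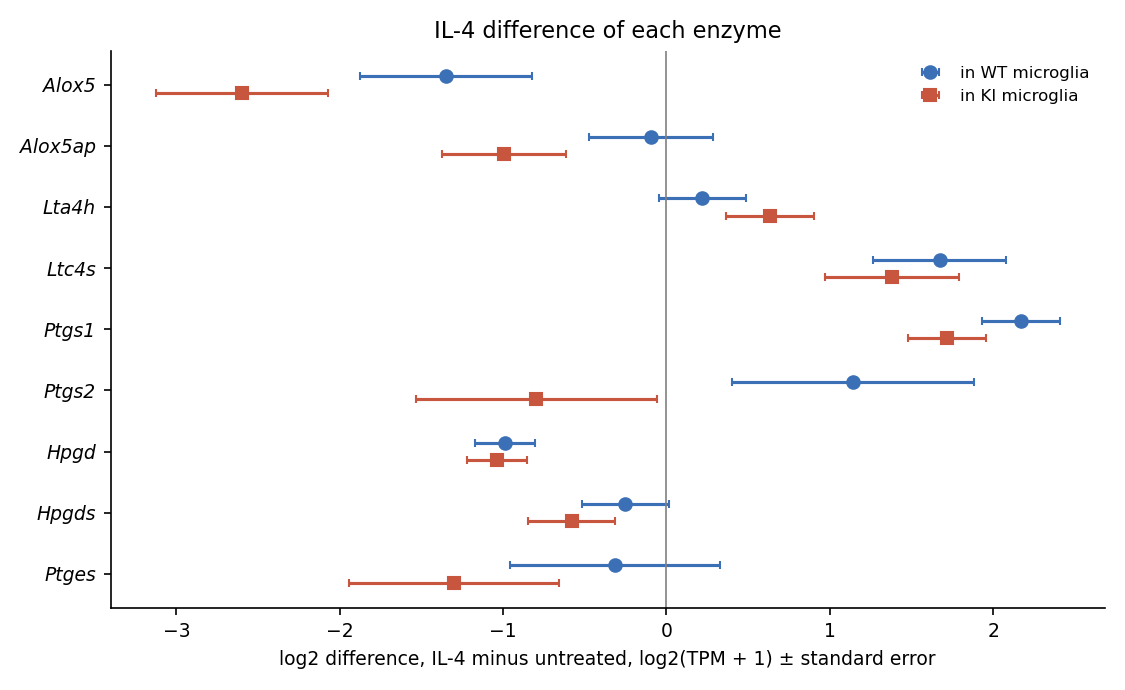
Difference between IL-4 and untreated libraries (horizontal axis, log2(TPM + 1) scale) for the 9 tested members in WT (blue circles) and KI (red squares), with standard errors of the limma fit as bars. *Ptgs1* and *Ltc4s* lie to the right and *Hpgd* and *Alox5* to the left of 0 in both genotypes; the KI value of *Alox5*, whose IL-4 libraries are at 0, depends on the pseudocount.

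The genotype comparison asked whether KI differed from WT in either treatment, with the same limma fit. Of the 9 members *Hpgd* was lower in KI and none was higher, against 0.357% of tested genes called lower and 1.29% called higher. The median genotype difference over all tested genes was 0.13 on the log2 scale, and -0.08 after quantile normalization, so values near 0 depend on the scaling.

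*Hpgd* lay at 693 to 908 TPM in untreated WT and 447 to 542 TPM in untreated KI, and at 390 to 415 TPM in WT and 183 to 309 TPM in KI with IL-4. The genotypes did not overlap in either treatment, which held for 4.55% of tested genes untreated and 5.79% with IL-4 in this direction. The average difference was -0.76 ± 0.13 (SE; adjusted p = 0.0298 in limma), -0.73 untreated and -0.78 with IL-4. The call was lost with no filter on low values (adjusted p = 0.176) and with no variance trend (0.119). It held without culture T32 (0.0231) and was lost without T13, T15, T22, T33 or T43, with adjusted p-values of 0.0714, 0.0924, 0.0599, 0.139 and 0.205. The microglial markers were lower in KI as well, with an average difference of -0.58 (KI minus WT) on the log2 scale. Per 1000 TPM of those 14 markers, *Hpgd* stood at 24.4 to 34.6 in untreated WT and 20.0 to 39.2 in untreated KI, and at 10.8 to 12.9 in WT and 6.91 to 12.3 in KI with IL-4, so the genotypes overlapped. With the mean log2 level of the markers subtracted in each library, an alternative chosen after seeing the data, the genotype difference of *Hpgd* was -0.17 (adjusted p = 0.572). That subtraction also moved the median of all genes to 0.71. The IL-4 difference of *Hpgd* was -1.18 (adjusted p = 0.0125) and that of *Ptgs1* 1.77 (0.000243) on the same scale. The markers themselves moved with IL-4. Their sum was higher with it in every culture, as from 26212 to 36190 TPM in T13 and from 11442 to 19836 TPM in T15. *Alox15*, listed at 0 throughout, thus had an IL-4 difference of -0.17 with the marker mean subtracted.

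**Figure D3:**
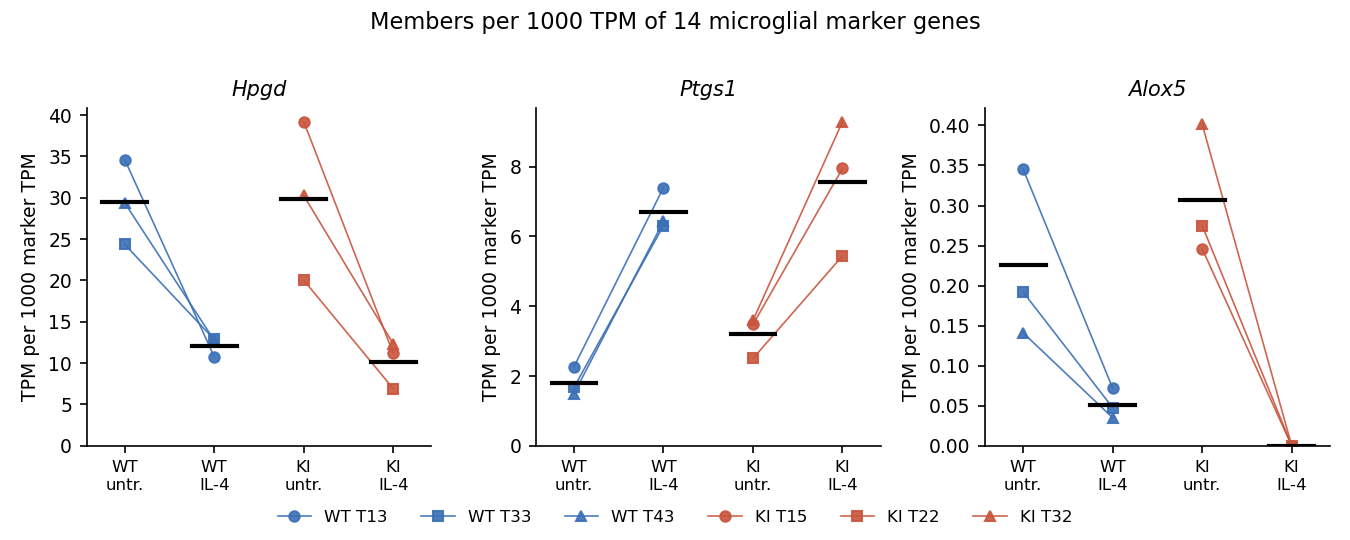
*Hpgd*, *Ptgs1* and *Alox5* as TPM per 1000 TPM of the 14 microglial markers (vertical axes, from 0), by group, with points as libraries, thin lines joining a culture and black bars as means. On this scale *Hpgd* overlaps between WT and KI, while it is lower and *Ptgs1* higher with IL-4 in every culture. The marker sum used for scaling is itself higher with IL-4 in every culture.

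The remaining members did not pass for genotype. *Ptgs2* was 2.54 to 9.91 TPM in untreated WT and 11.7 to 31.9 TPM in untreated KI, without overlap, which was so for 13.6% of tested genes in this direction. *Col1a1* separated the same groups, at 2.93 to 4.43 TPM in untreated WT and 6.14 to 24.3 TPM in untreated KI. With IL-4 the genotypes overlapped in *Ptgs2*, and the average difference was 0.92 ± 0.52 (SE; adjusted p = 0.359 in limma). It was 0.38 without T15 and 0.57 without T33, and up to 1.37 with another culture left out. T15 held the highest *Ptgs2* values of KI, at 31.9 TPM untreated and 28.6 TPM with IL-4, and also the highest astrocyte marker sums, at 4788 and 3656 TPM. The part of astrocyte and fibroblast genes in these values was not tested. The ratio of *Ptgs1* to *Ptgs2* was 5.98 to 17.6 in untreated WT and 1.25 to 5.48 in untreated KI, so the 2 cyclooxygenases stood closest in untreated KI cells. *Ptgs1* itself differed by -0.12 ± 0.17 (SE; adjusted p = 0.695). *Hpgds* with IL-4 was 160 to 173 TPM in WT and 83.8 to 126 TPM in KI without overlap, as for 5.79% of tested genes in this direction, whereas untreated the genotypes overlapped (average difference -0.49 ± 0.19, adjusted p = 0.312, and -0.32 without T15). *Alox5* with IL-4 was listed at 0 in every KI library and above 0 in every WT library, a separation to be read against the same 5.79%, and its genotype effect had an adjusted p of 0.320. *Alox5ap* differed by -0.49 ± 0.27 (adjusted p = 0.379). Without WT culture T13, whose *Alox5ap* values were the lowest of WT, the difference was -0.91 with an adjusted p of 0.0248, and without T43 or T33 it was -0.27 (0.847) or -0.30 (0.756). *Lta4h* (0.31 ± 0.19, adjusted p = 0.544), *Ltc4s* (0.20 ± 0.29, 0.897) and *Ptges* (0.31 ± 0.45, 0.777) missed the threshold too. With 1 culture left out, *Lta4h* ran from 0.10 without T32 to 0.46 without T22, and *Ptges* from 0.051 without T33 to 0.70 without T22.

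**Figure D4:**
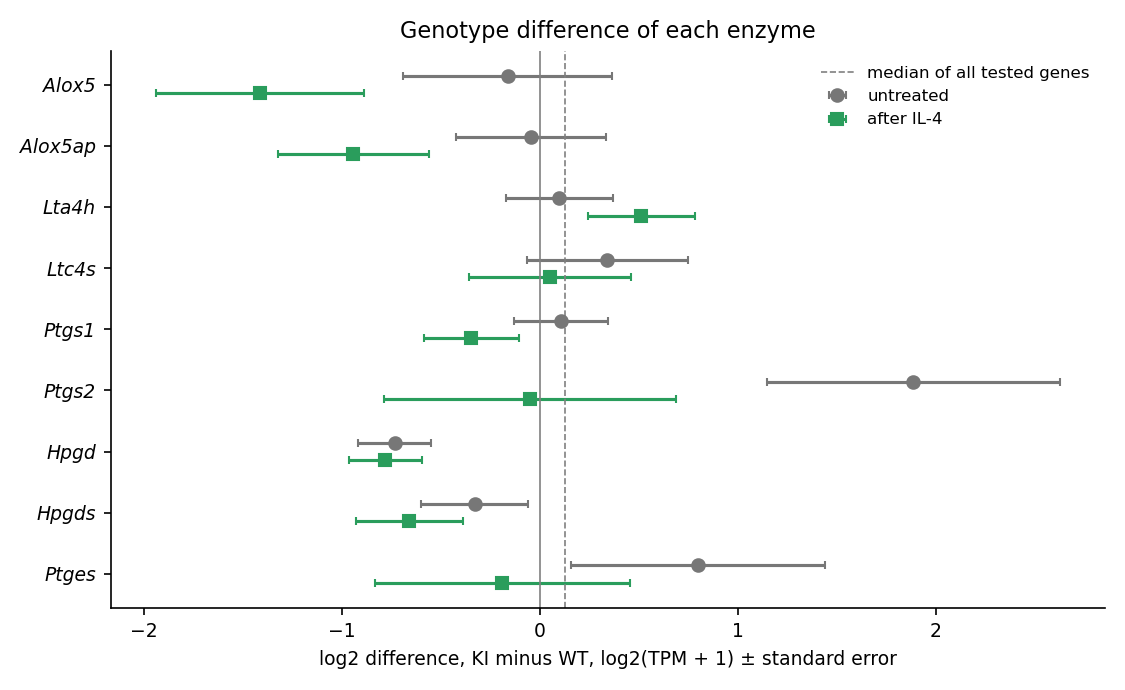
Difference between KI and WT (horizontal axis, log2(TPM + 1) scale) for the 9 tested members, untreated (grey circles) and with IL-4 (green squares), with standard errors of the limma fit as bars and the median of all tested genes as a dashed line. *Hpgd* lies at -0.73 and -0.78, and *Ptgs2* lies at 1.89 untreated and -0.05 with IL-4.

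Whether the IL-4 difference itself differed between genotypes was tested by the interaction term. Of the 11204 genes, 0 passed (0% called), and 357 had an unadjusted p under 0.05 in limma. Among the members the lowest unadjusted p was 0.0852, for *Ptgs2*, whose IL-4 difference was 1.14 in WT and -0.80 in KI. Their difference of -1.94 ± 1.04 (SE) had an adjusted p of 1.00, and it ran from -2.74 to -0.93 with 1 culture left out. *Alox5ap* had IL-4 differences of -0.10 in WT and -0.99 in KI, and *Ptges* of -0.31 and -1.30, and neither contrast between genotypes passed the test. The contrast of *Ptges* ran from -1.64 to -0.27 with 1 culture left out. *Ptgs1* rose by 2.17 in WT and 1.72 in KI, and the difference of -0.45 ± 0.34 (SE) missed the threshold as well. With 1 culture left out, that difference ran from -0.57 to -0.27.

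The steps before, beside and after these enzymes were read from 56 other genes of the pathway in 6 lists, all found in the table, of which 29 passed the expression limit. Only *Tbxas1* passed for IL-4, that is 1 of 29, upward, and none passed for genotype or the interaction. Over all tested genes 0.75% were called higher with IL-4, and 1.29% higher and 0.357% lower in KI. *Tbxas1* encodes thromboxane synthase, which competes with *Hpgds* and *Ptges* for prostaglandin H2. It stood at 114, 139 and 122 TPM in untreated WT and at 263, 251 and 248 TPM with IL-4. KI cultures held 43.9, 109 and 76.0 TPM untreated and 114, 196 and 221 TPM with IL-4. Every culture rose, by 1.80 to 2.91 times, with an average difference of 1.13 ± 0.21 (SE; adjusted p = 0.0397 in limma), and KI lay below WT without overlap in both treatments (genotype adjusted p = 0.191), as did 4.55% of tested genes untreated and 5.79% with IL-4. The IL-4 call of *Tbxas1* was lost with a pseudocount of 0.1 (adjusted p = 0.0501), no filter (0.363), quantile normalization (0.111), median-ratio scaling (0.121) and no variance trend (0.195). It held without T15 or T22 and was lost without T13, T32, T33 or T43, with adjusted p-values of 0.187, 0.191, 0.193 and 0.252. With the mean log2 level of the microglial markers subtracted, the IL-4 difference of *Tbxas1* was 0.96 (adjusted p = 0.175 in limma). Those markers themselves differed by -0.58 (KI minus WT) on the log2 scale. The ratio of *Hpgds* to *Tbxas1* was 1.37 to 2.57 in the 6 untreated libraries and 0.379 to 0.975 in the 6 with IL-4. *Hpgds* was thus listed above *Tbxas1* in every untreated library and below it in every library with IL-4. *Tbxas1* is named for its IL-4 call in these same data, and the ratio was not tested.

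Of the 13 genes for release of arachidonic acid 9 were tested and none passed. *Pla2g4a*, the cytosolic phospholipase A2 that frees arachidonic acid from membranes, had an IL-4 difference of 0.50 ± 0.17 (SE; adjusted p = 0.535 in limma), and *Daglb*, a diacylglycerol lipase, one of 0.89 ± 0.20 (0.134). Both were higher with IL-4 in 6 of 6 cultures, again as a description. None of the 5 other lipoxygenases reached the expression limit, and the highest value among them was 2.08 TPM of *Aloxe3* in untreated T15. In the prostanoid list 6 of 8 were tested: *Ptges2* and *Ptges3*, further prostaglandin E synthases, differed by 0.09 and -0.09 with IL-4, and *Ptgds*, the other prostaglandin D synthase, stayed below the limit at 0 to 11.4 TPM. Of 13 genes for further conversion and breakdown 9 were tested, among them *Ephx1* (genotype difference 0.97 ± 0.29, adjusted p = 0.191) and *Ptgr1*, a reductase that inactivates leukotriene B4 and prostaglandins (0.49 ± 0.23, 0.258). The highest *Ephx1* values, 228 TPM untreated and 244 TPM with IL-4, were those of T15, which also held the highest astrocyte marker sums. The part of astrocyte genes in these values was not tested. Of 14 receptors 3 were tested, the prostaglandin E2 receptors *Ptger2* and *Ptger4* and the cysteinyl leukotriene receptor *Cysltr1*. *Cysltr1* ran from 4.88 to 13.5 TPM with an IL-4 difference of 0.00 ± 0.28. The prostaglandin D2 receptors *Ptgdr* and *Ptgdr2* reached at most 0.0753 and 0.0039 TPM, and the leukotriene B4 receptor *Ltb4r1* at most 0.34 TPM. The exporters *Abcc1* and *Abcc4* were the 2 of 3 transport genes tested, and neither passed.

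**Figure D5:**
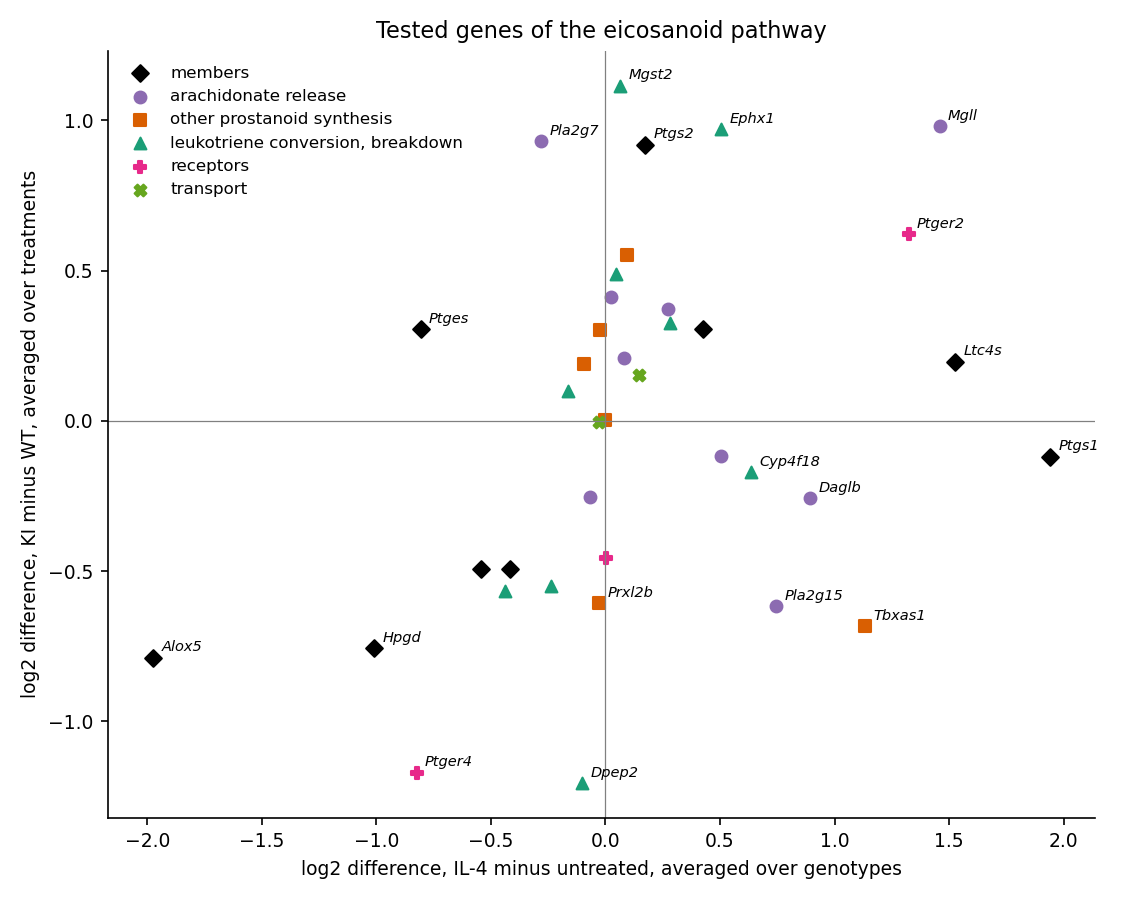
Average IL-4 difference (horizontal axis) against average KI minus WT difference (vertical axis), both in log2(TPM + 1), for the 9 tested members (black diamonds) and the 29 other tested pathway genes, marked by list. *Ptgs1*, *Ltc4s*, *Mgll*, *Ptger2* and *Tbxas1* lie farthest right and *Alox5* and *Hpgd* farthest left; names are given where either difference exceeds 0.6 in size.

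Genes whose pattern was like that of each called member were found by Pearson correlation over the 12 libraries among all tested genes, as a description. Libraries share cultures, treatment and TPM scaling, so these values carry no test. For *Ptgs1* they included *Rnf19b* (0.96) and *Ap2m1* (0.96). For *Hpgd* they were *Coro1a* (0.96), an actin regulator of leukocytes, *Lyn* (0.93), a Src-family kinase, and *Colec12* (0.93). For *Alox5* they were *Lyn* (0.92), *Adgb* (0.91) and *Tlr2* (0.88), a Toll-like receptor.

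By position, the members are spread over 7 chromosomes in the GRCm38 annotation, so the set is no cluster. *Ptgs1* lies on the plus strand at chr2:36230426-36252272 and *Ptges* on the minus strand at chr2:30889471-30929863. *Alox5* lies at chr6:116410077-116461178 and *Hpgds* at chr6:65117293-65144908, both on the minus strand. *Hpgd* lies on the plus strand at chr8:56294585-56321043 and *Ltc4s* on the minus strand at chr11:50236461-50238616. Salmon values are for the whole protein-coding gene, and exons were not told apart.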

How the data were processed

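RNA-seq libraries of primary microglia were made by the study from 6 cultures, each untreated and after IL-4. By the authors, reads were trimmed (Trim Galore), assigned to ENSEMBL GRCm38 transcripts (Salmon) and summed to genes (tximport). The deposited unit is TPM, values which sum to 1000000 per library and keep no read counts. The depth behind a value is therefore unknown, no counting interval is given, and precision rests on the spread between cultures. Between 20750 and 23945 genes per library were above 0, and no pair of libraries was identical. The authors tested read counts, which were not analysed here, so limma 3.58.1, run in R 4.3.3 with lmFit and a trended eBayes, took the place of their test on log2(TPM + 1), for genes with a mean above 1.5. Fold changes on that scale understate those of low genes. Tables came from Python 3.11.15 and pandas 2.3.3, plots from matplotlib 3.10.9.

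The 10 members, the 56 other pathway genes and the marker lists were chosen with earlier results of these data known. Named are all members, the pathway genes past a threshold and up to 2 others per list, and the 3 tested genes most correlated with each called member, except 1 gene that is not reported here. Values named outside that rule, the receptors and other low genes, were chosen after their values were seen.

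The untreated and the IL-4 library of a culture carry the same culture name, so they come from the same cells and are paired. Their deviations from the group means correlated at 0.0792 to 0.378. A fit without the pairing counts both libraries of a culture as separate replicates, which makes p-values for genotype too small. Groups hold 3 cultures each. Alternatives were other pseudocounts, filters, scalings, variance models, the culture as replicate block, and each culture left out. Promoter windows were RefSeq's, and proteins were not analysed here.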

Additional observations from a re-analysis of the deposited data

How the results depend on the processing

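Depth is unknown for TPM, which limits the low members *Alox5*, *Ptges* and *Ptgs2* most. Of the values of single members under all alternatives, 383 kept their direction and side of the threshold, 15 lost the call, 8 gained it and 11 changed sign. The calls of *Ptgs1* and *Hpgd* for IL-4 held with any culture left out. For IL-4, 100 genes passed, against 61 with no filter, 50 with no variance trend, 151 with a test of the average alone, and 240, with 5 members instead of 3, with the replicate block. For genotype, 185 genes passed, against 16 with no filter, 26 with no variance trend and 575 with a test of the average alone. With culture as a random replicate block (within-culture correlation 0.198) 77 genes passed. *Hpgd* was lost without the filter and without the trend, leaving 0 members. For the interaction 4 genes passed with no filter. Beyond *Ltc4s* and *Alox5ap* for IL-4, the replicate block changed no call of a member. With each culture left out in turn, 46 to 144 genes passed for IL-4 and 3 to 192 for genotype, with 0 to 1 members. The low counts for genotype were 3 without T33, 16 without T43, 48 without T15 and 79 without T32. For IL-4, 46 genes passed without T43, 51 without T33, 56 without T13 and 65 without T32.

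With the marker mean subtracted, chosen after seeing the data, 3888 genes passed for genotype, 3870 of them higher in KI, and 2 members, *Ptgs2* (1.503) and *Lta4h* (0.89). Signs changed there for genotype in *Alox5ap* (0.092), *Ptgs1* (0.47) and *Hpgds* (0.091). Uncalled values also changed sign for genotype in *Ptges* (-0.037) under quantile normalization. With a culture left out they did so for genotype in *Ltc4s* (range -0.036 to 0.48, lowest without T15) and *Ptgs1* (-0.30 to 0.020, above 0 without T13 or T15), for the interaction in *Hpgd* (-0.16 to 0.077, above 0 without T22 or T33) and *Ltc4s* (-0.70 to 0.16, highest without T13), and for IL-4 in *Ptgs2* (-0.33 to 0.57, lowest without T43). Of the genotype calls 78.4% were higher in KI, against 60.0% with quantiles equalised and 67.7% with median-ratio scaling. The causes were not tested.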

Other observations

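Among the receptors, the 2 that bind prostaglandin E2 and raise cyclic AMP stood in a different balance with IL-4, a pair chosen after its values were seen and given as values with no test of the ratio. *Ptger4* over *Ptger2* was 14.98, 15.9 and 7.85 in WT (T13, T33, T43) without IL-4 and 3.74, 3.35 and 2.64 in the same cultures with IL-4. In KI cultures T15, T22 and T32 it was 3.36, 20.9 and 1.37 untreated and 1.11, 0.535 and 0.305 with IL-4. The ratio was thus lower with IL-4 in 6 of 6 cultures, and *Ptger2* exceeded *Ptger4* only in KI cultures T22 and T32 with IL-4. Each receptor alone missed the threshold in limma for IL-4, *Ptger2* with 1.32 ± 0.34 (SE; adjusted p = 0.272) and *Ptger4* with -0.82 ± 0.31 (adjusted p = 0.592).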
